A study of Homo sapiens with 8 samples.

Results

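The genes described here are 10 enzymes and transporters of serine, glycine and one-carbon metabolism: PHGDH, PSAT1, PSPH, SHMT1, SHMT2, SLC6A9, MTHFD2, MTHFD1L, ALDH1L2 and ASNS. They were taken by symbol from the 58302 genes of the expression tables, each symbol matching 1 Ensembl identifier. RNA sequencing measured poly(A)-selected RNA of SK-Hep1, a long-established human line from a patient with a liver tumour. The line was grown in serum-containing Dulbecco's medium with added L-glutamine. The cells were either mock controls or carried ectopic SLC29A2, which encodes an equilibrative nucleoside transporter. Both cell types received a control treatment, sorafenib (a multikinase inhibitor that blocks RAF and growth factor receptors), dipyridamole (an inhibitor of nucleoside transport and phosphodiesterases) or both drugs, which gave 8 libraries with 1 library per condition. Doses, treatment times, the vector and promoter driving SLC29A2, and whether the SLC29A2 cells came from 1 clone or a pool were not stated in the sources used here. No condition had a replicate.

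Serine is made from a glycolytic intermediate in 3 steps, catalysed in turn by PHGDH, PSAT1 and PSPH. The serine hydroxymethyltransferases, SHMT1 in the cytosol and SHMT2 in mitochondria, split serine into glycine and a carbon unit carried on tetrahydrofolate. In mitochondria MTHFD2 oxidises that unit and MTHFD1L releases it as formate for purine and thymidylate synthesis, while ALDH1L2 can oxidise it to carbon dioxide. SLC6A9 carries glycine into the cell, and ASNS makes asparagine from aspartate with glutamine as the nitrogen donor. Many of these genes are known targets of ATF4, the transcription factor of the integrated stress response.

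Levels are given in FPKM, a unit corrected for gene length and sequencing depth. The gene length used was not stated in the sources used here, so levels of different genes can be compared only roughly. Effects are differences in log2(FPKM + 1), which understates the change of genes at a low level. The libraries held 14.07 to 16.69 M reads, and 1 read in a 2 kb gene corresponded to 0.03 to 0.0355 FPKM. SLC29A2 was at 7.11 to 7.81 FPKM in mock cells and at 1480 to 3040 in SLC29A2 cells. The mock libraries given dipyridamole without and with sorafenib had the most genes above 0 FPKM, 23766 and 24801, against 22613 to 23514 in the others. Their size factors, estimates of scale from the genes present in all libraries, were 1.009 and 1.162. Those of the others were 0.934 to 1.021, so by this measure the library with both drugs alone lay outside. Calls of the genes named that changed without both of these mock libraries are stated. Leaving both out keeps dipyridamole in SLC29A2 cells alone, so dipyridamole values of that setting describe those cells. Hepatocyte markers were mostly absent, with ALB at 0 to 0.111 FPKM, HNF4A at 0 to 0.131 and TTR listed at 0. Of 6 endothelial markers, 1 had a mean of at least 1 FPKM (CAV1, 101 to 389), and PECAM1 did not exceed 0.259 FPKM. The summed FPKM of the epithelial markers EPCAM, CDH1, KRT8 and KRT18 was 1990 to 2710 without dipyridamole and 672 to 1010 with it, nearly all from the keratins, and that of the endothelial list was 321 to 390 without and 102 to 132 with it. The 6 hepatocyte markers summed to 2.01 to 2.69 FPKM without sorafenib and 4.14 to 5.91 with it, mostly SERPINA1. The 4 leukocyte markers summed to 0.228 to 2.15 FPKM, with PTPRC at no more than 0.484, and the 4 mesenchymal ones to 975 to 1590, mostly VIM and FN1. The part of these shifts in the results that follow was not tested.

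The 10 genes covered a wide range of levels. SHMT2 stood highest, at 132 to 187 FPKM, with MTHFD2 (42 to 89), MTHFD1L (40.9 to 57.4) and PHGDH (18.8 to 123) next. SHMT1 (14.6 to 30.6), SLC6A9 (11.4 to 35) and PSPH (11 to 25.8) overlapped each other in range, and ASNS lay lower, at 2.82 to 15 FPKM. ALDH1L2 and PSAT1 were near 0. With a mean of at least 1 FPKM required, 8 of the 10 entered the tests.

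**Figure D1:**
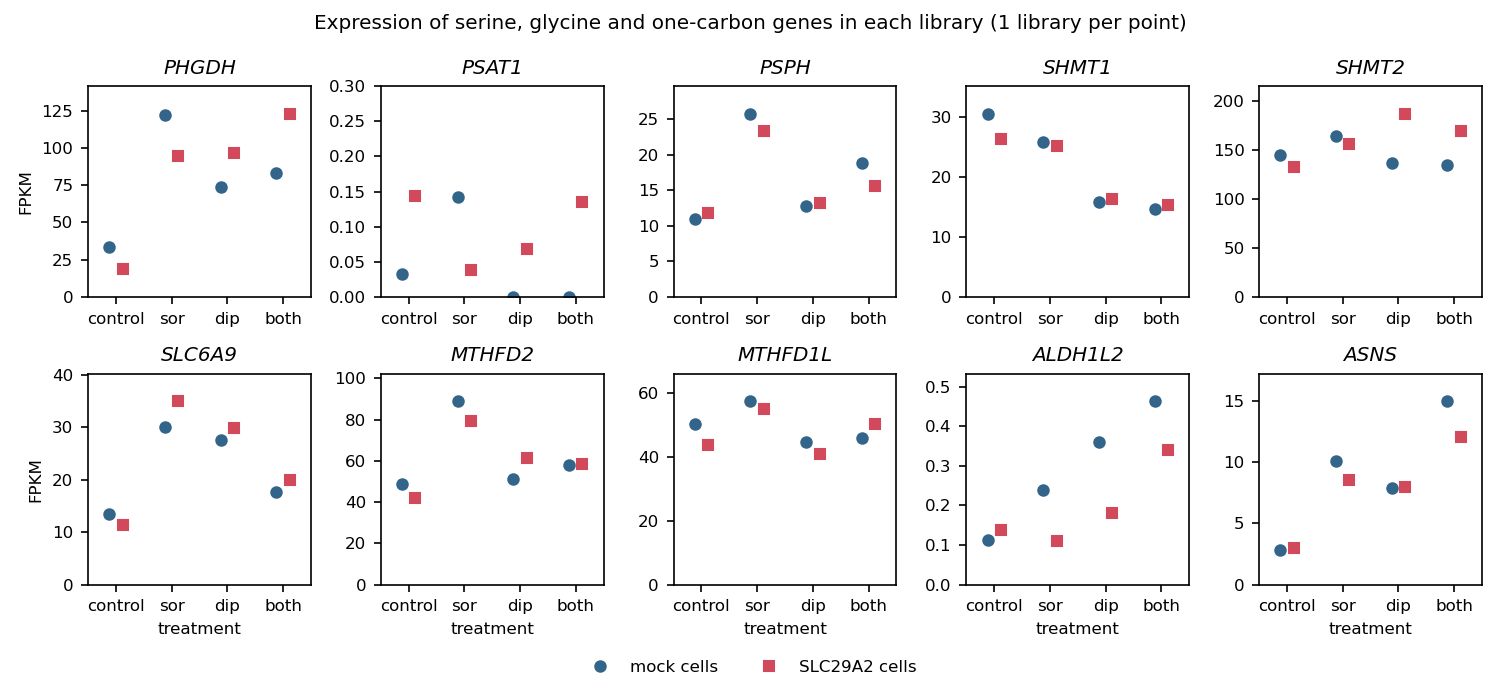
FPKM (linear axis from 0, scaled separately per gene) of the 10 genes in each of 8 libraries, by treatment (sor, sorafenib; dip, dipyridamole) and cell type; each point is 1 library. PHGDH is lowest in both control-treated libraries (33.3 and 18.8 FPKM), SHMT1 is lower in all 4 libraries with dipyridamole (14.6 to 16.3), and ASNS is highest with both drugs (15 and 12.1).

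Serine synthesis began with PHGDH, the rate-limiting dehydrogenase. In mock cells its level was 33.3 FPKM with the control treatment, 122 with sorafenib, 73.5 with dipyridamole and 83.3 with both drugs. The corresponding values in SLC29A2 cells were 18.8, 94.7, 96.5 and 123 FPKM. Every treated library was thus above both control-treated ones, and the order of the treatments differed between the cell types. Averaged over dipyridamole, the sorafenib effect was 1.16 ± 0.36 (SE, log2, 4 library pairs), positive in 4 of 4 pairs (0.18 to 2.27) but not past the threshold (limma, adjusted p = 0.0793). The dipyridamole effect was 0.81 ± 0.36, positive in 3 of 4 pairs (−0.54 to 2.30; limma, adjusted p = 0.119). With 1 library left out, the sorafenib effect lay between 0.75 and 1.54 and the dipyridamole effect between 0.40 and 1.19. Those averages joined unlike pairs: the sorafenib difference was 1.84 and 2.27 without dipyridamole and 0.18 and 0.35 with it.

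PSAT1, the aminotransferase of the middle step, was hardly detected. Its levels were 0.0333, 0.142, 0 and 0 FPKM in mock cells given the control treatment, sorafenib, dipyridamole and both drugs, and 0.144, 0.0383, 0.0686 and 0.135 in SLC29A2 cells. These values correspond to 0 to 4 reads per library and 16 reads over all 8. The 2 libraries with no read allow up to 0.118 and 0.111 FPKM, the level that 3 reads would give (counting error only). At this depth no difference between conditions was detectable. The 4 processed pseudogenes of PSAT1 in the annotation were listed at 0 in every library.

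PSPH, the phosphatase that releases serine, rose with sorafenib. Mock cells had 11, 25.8, 12.8 and 18.8 FPKM with the control treatment, sorafenib, dipyridamole and both drugs, and SLC29A2 cells had 11.8, 23.4, 13.2 and 15.6. All 4 libraries given sorafenib were above all 4 without it, as for 5.83% of all genes tested. The sorafenib effect was 0.71 ± 0.16 (limma, adjusted p = 0.0302), and the dipyridamole effect was −0.16 ± 0.16 (limma, adjusted p = 0.463). The sorafenib call was lost in 7 of 8 refits that each left out 1 library (0.59 to 0.84, adjusted p up to 0.0849), with size-factor scaling (0.61, adjusted p = 0.0589), without a filter on low values (adjusted p = 0.116) and without both dipyridamole-treated mock libraries (0.77, adjusted p = 0.0989). The pseudogene PSPHP1, also on chromosome 7, was listed at 7.72 to 13.5 FPKM with a sorafenib effect of 0.25 ± 0.13 (limma, adjusted p = 0.259), so the PSPH level is uncertain where reads could be split between the copies.

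SHMT1, the cytosolic serine hydroxymethyltransferase, was lower wherever dipyridamole was given. Its level in mock cells was 30.6 FPKM with the control treatment and 25.9 with sorafenib, against 15.8 with dipyridamole and 14.6 with both drugs. SLC29A2 cells showed 26.3 and 25.2 FPKM without dipyridamole and 16.3 and 15.3 with it. The groups of 4 did not overlap (11.7% of all genes tested were lower without overlap), and the 8 values fell into a band of 25.2 to 30.6 and one of 14.6 to 16.3 FPKM. The gene fell with dipyridamole by 0.76 ± 0.10 on the log2 scale (limma, adjusted p = 0.000999), in 4 of 4 pairs (−0.91 to −0.66), and the call held in all 8 refits with 1 library left out (adjusted p up to 0.00544). In such bulk RNA, fewer cells with the transcript and less RNA per cell cannot be told apart. With sorafenib the effect was −0.12 ± 0.10 (limma, adjusted p = 0.493). SMCR8, which shares 196 exonic bases (2.69% of those of SHMT1) on the opposite strand, rose with dipyridamole by 0.53 ± 0.13 (limma, adjusted p = 0.0144), and the counting is not stated to use strand.

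SHMT2, the mitochondrial enzyme, showed no change that passed the test. It was at 145, 164, 137 and 135 FPKM in mock cells and 132, 156, 187 and 169 in SLC29A2 cells, in the order control treatment, sorafenib, dipyridamole and both drugs. Both main effects were 0.06 ± 0.13, with limma adjusted p of 0.814 for sorafenib and 0.751 for dipyridamole, and either effect changed sign with size-factor scaling. As a description, the ratio of SHMT2 to SHMT1 FPKM was 4.75 to 6.35 in the 4 libraries without dipyridamole and 8.67 to 11.5 in the 4 with it.

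SLC6A9, the glycine transporter, was higher with either drug given alone than with the control treatment or with both drugs. Its levels in mock cells were 13.5 FPKM with the control treatment, 30 with sorafenib, 27.6 with dipyridamole and 17.7 with both drugs. In SLC29A2 cells they were 11.4, 35, 29.8 and 20 FPKM. The 4 single-drug libraries (27.6 to 35) lay above the 2 with both drugs (17.7 and 20), and those above the 2 control-treated ones (11.4 and 13.5). The averaged effects therefore cancelled in part, at 0.36 ± 0.33 for sorafenib (limma, adjusted p = 0.523) and 0.19 ± 0.33 for dipyridamole (limma, adjusted p = 0.691). CCDC24, on the opposite strand with 404 shared exonic bases (7.83% of those of SLC6A9), was at 9.97 to 28.3 FPKM and highest in mock cells given both drugs, where SLC6A9 was at 17.7. It rose with dipyridamole by 0.49 ± 0.16 (limma, adjusted p = 0.0497).

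Of the mitochondrial folate enzymes, MTHFD2, the dehydrogenase and cyclohydrolase, was highest with sorafenib alone. The mock libraries held 48.8, 89, 51 and 58.2 FPKM with the control treatment, sorafenib, dipyridamole and both drugs. The SLC29A2 libraries held 42, 79.5, 61.4 and 58.7. Sorafenib alone thus stood above the other 3 treatments in both cell types, but the averaged effect did not pass the test (0.47 ± 0.17; limma, adjusted p = 0.123). The dipyridamole effect was −0.11 ± 0.17 (limma, adjusted p = 0.667). MTHFD2 shares 1324 exonic bases (27.19%) with SLC4A5 on the opposite strand, which was at 0.176 to 0.655 FPKM.

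MTHFD1L, the formate-releasing synthetase, moved little. It was at 50.2, 57.4, 44.5 and 46 FPKM in mock cells and at 43.6, 55, 40.9 and 50.1 in SLC29A2 cells, in the same order of treatments. The sorafenib effect was 0.21 ± 0.10, positive in 4 of 4 pairs (limma, adjusted p = 0.206), and the dipyridamole effect was −0.18 ± 0.10, negative in 4 of 4 (limma, adjusted p = 0.206). ALDH1L2, the mitochondrial formyl-tetrahydrofolate dehydrogenase, was at 0.112, 0.24, 0.361 and 0.464 FPKM in mock cells and 0.139, 0.111, 0.182 and 0.34 in SLC29A2 cells. That was 6 to 26 reads per library, and the gene was not tested. Its value was higher with dipyridamole than without in 4 of 4 pairs, a description at such low counts and not a test. In SLC29A2 cells without sorafenib the pair rested on 8 reads without dipyridamole and 11 with it.

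ASNS, asparagine synthetase, rose with both drugs. Mock cells had 2.82 FPKM with the control treatment, 10.1 with sorafenib, 7.92 with dipyridamole and 15 with both. SLC29A2 cells had 2.96, 8.53, 8.01 and 12.1 FPKM. The single-drug libraries lay between the control-treated ones and those with both drugs in each cell type. The sorafenib effect was 1.05 ± 0.17 (limma, adjusted p = 0.0114), in 4 of 4 pairs (0.54 to 1.53) and with no overlap between the libraries with and without the drug. The dipyridamole effect was 0.85 ± 0.17 (limma, adjusted p = 0.00625), also in 4 of 4 pairs (0.46 to 1.23), though here the groups overlapped. Each call held in all 8 refits with 1 library left out, and each was lost without both dipyridamole-treated mock libraries (sorafenib 1.12, adjusted p = 0.0668; dipyridamole 0.82, adjusted p = 0.0711). The sorafenib call was also lost without a filter on low values (adjusted p = 0.0704). ASNS shares 1985 exonic bases (44.56%) with a processed transcript on the same strand that was listed at 0 to 0.207 FPKM.

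The promoter of ASNS is known for an amino acid response element, to which ATF4 binds together with C/EBP proteins. Promoter windows of 300 bases (250 before and 50 after the annotated start) from RefSeq on GRCh38.p14 were searched on both strands for TGATGNAA, a form of that element. It was found in 3.62% of 35116 windows and in 4.46% of 27305 genes. Of the 10 genes, 7 had a window (PHGDH, PSAT1, SHMT1, SLC6A9, MTHFD2, MTHFD1L and ASNS), and 2 of those held a match. Both are shown 5′ to 3′ on the strand of the gene, with the match in capitals. They are given because, in the additive model, 1 of these genes rose with each drug and the other passed no test.
ASNS (chr7:97872458-97872487, minus strand): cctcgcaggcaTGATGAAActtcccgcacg
MTHFD1L (chr6:150866346-150866375, plus strand): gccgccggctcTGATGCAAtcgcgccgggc
The ASNS match begins 68 bases before 1 of its 2 annotated starts, and the window of the other holds no match. The MTHFD1L match begins 129 or 90 bases before, or 24 bases after, the start, depending on which of its nearby annotated starts is taken. The window of a further annotated start, at chr6:151007008, holds no match. Of the ATF4 list described further on, 3 of the 14 genes with a window held a match. A match is a description of letters, not of a bound site.

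Counted together, 2 of the 8 tested genes rose with sorafenib (PSPH and ASNS) and none fell, against 8.11% of all 13899 genes called in either direction, 5.94% higher and 2.17% lower. The median effect of the 8 was 0.42 and that of all genes 0.089. With dipyridamole 1 rose (ASNS) and 1 fell (SHMT1), against 30% of all genes called, 17.5% higher and 12.6% lower, and the median was −0.03 against 0.074. A share of 2 in 8 is near the background of the dipyridamole comparison. The 8 genes were chosen with earlier results of these data known, so these shares describe them and do not test them as a set. The direction of all calls depended on scaling: 73.2% of sorafenib calls over all genes were higher in the values as deposited and 50.4% after size-factor scaling, and for dipyridamole the shares were 58.2% and 48.5%.

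**Figure D2:**
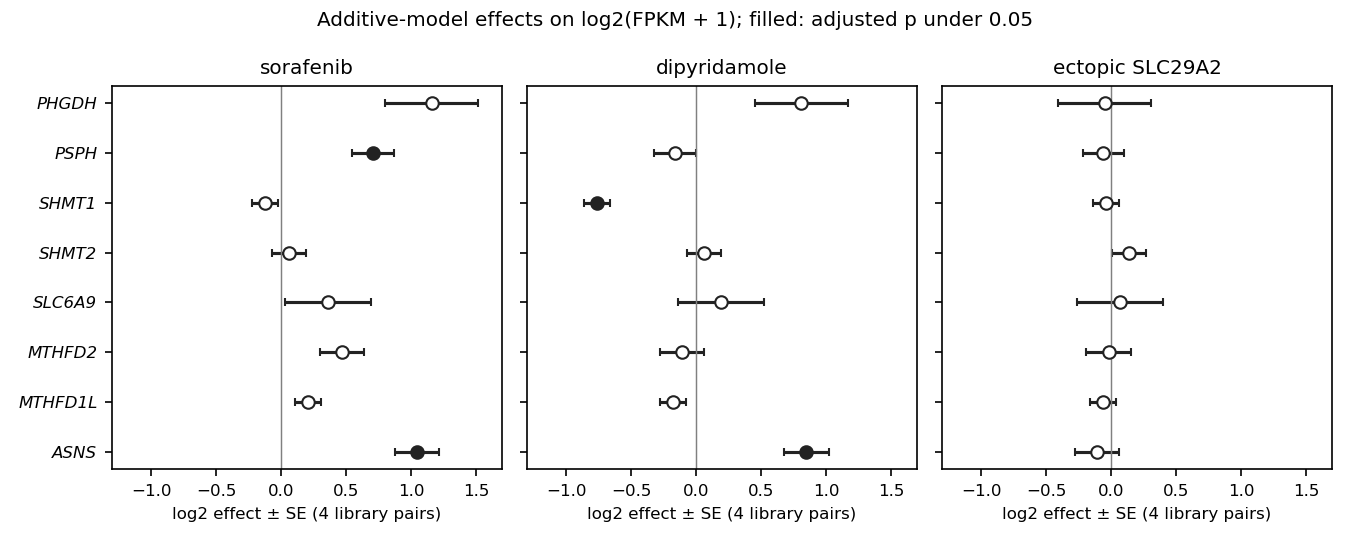
Effect on log2(FPKM + 1) ± SE for the 8 tested genes (1 row per gene, the same linear axis in each panel), for sorafenib, dipyridamole and ectopic SLC29A2, each over 4 library pairs; filled points have a limma adjusted p under 0.05. ASNS (1.05) and PSPH (0.71) are filled for sorafenib, ASNS (0.85) and SHMT1 (−0.76) for dipyridamole, and no gene is filled for SLC29A2.

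Averaged over the treatments, the effects of ectopic SLC29A2 on the 8 genes were −0.11 to 0.14 on the log2 scale. None passed the test (0.00719% of all genes did, by limma), and the libraries of the cell types overlapped for each of the 8. Some averages joined pairs of opposite sign. For PHGDH (−0.05 ± 0.36) the differences were −0.79 and −0.36 without dipyridamole and 0.39 and 0.56 with it. For SHMT2 (0.14 ± 0.13) they were −0.14 and −0.08 without it and 0.45 and 0.32 with it. The difference in drug effect between the cell types was −0.28 to 0.30 for sorafenib and −0.09 to 1.05 for dipyridamole, the highest of each being PHGDH. Again none passed (0% of all genes by limma), although 100 and 2756 of all genes had an unadjusted p under 0.05, and 0 and 0 were called by limma voom on recovered reads. With 3 residual degrees of freedom, a p that misses the threshold does not show that the cell types responded alike.

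The drugs in combination were compared with the drugs alone by the sorafenib by dipyridamole interaction, the sorafenib effect with dipyridamole minus that without it. SLC6A9 had an interaction of −1.90 ± 0.21 (limma, adjusted p = 0.0457), the only call among the 8 genes, in a test that called 0.0863% of all genes (12; 16 by limma voom). In mock cells the SLC6A9 difference from the control treatment was 1.10 with sorafenib, 0.98 with dipyridamole and 0.37 with both, where the single-drug differences sum to 2.08. In SLC29A2 cells it was 1.53, 1.31 and 0.75, with a sum of 2.84. The value lay between −2.09 and −1.71 when any 1 library was left out, but the call was lost in all 8 of those refits (adjusted p up to 0.321), with a pseudocount of 0.1 (−1.98, adjusted p = 0.0632) and with no filter on low values (adjusted p = 0.215).

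For PHGDH the interaction was −1.80 ± 0.44 (limma, adjusted p = 0.222). With both drugs together it stood 1.30 above the control treatment in mock cells, against a sum of 2.96 for the single drugs, and 2.65 above it in SLC29A2 cells, against 4.58. The interactions of MTHFD2 (−0.82 ± 0.21; limma, adjusted p = 0.231), ASNS (−0.71 ± 0.23; 0.284) and PSPH (−0.67 ± 0.20; 0.262) had the same sign and did not pass. SHMT1 (0.05 ± 0.19), MTHFD1L (−0.09 ± 0.18) and SHMT2 (−0.29 ± 0.25) were nearer 0. Without both dipyridamole-treated mock libraries, the sorafenib effect with dipyridamole came from SLC29A2 cells alone, with 1 library per condition. That fit, with 1 residual degree of freedom, fits the remaining dipyridamole libraries exactly, so its p-values hold none of their spread and are not given. The interaction was then −1.71 for PHGDH, −0.94 for MTHFD2, −0.82 for PSPH, −0.86 for ASNS and −0.36 for SHMT2. The median interaction of the 8 was −0.69, beside 0.105 for all genes. ASNS differed from SLC6A9 and PHGDH in that its value with both drugs exceeded each single-drug value in both cell types.

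**Figure D3:**
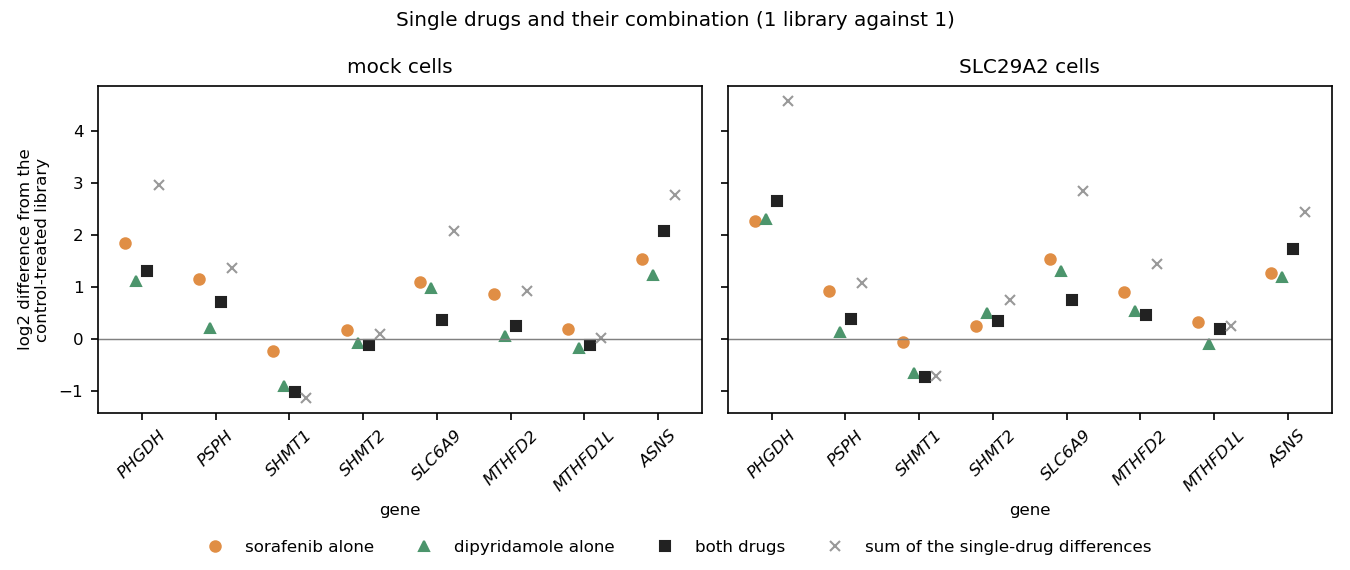
Difference in log2(FPKM + 1) from the control-treated library of the same cell type for sorafenib alone, dipyridamole alone and both drugs, with the sum of the single-drug differences; each point is 1 library against 1, by gene, in mock and SLC29A2 cells. For SLC6A9 the value with both drugs (0.37 and 0.75) lies below either drug alone and far below the sum (2.08 and 2.84), while for SHMT1 it lies close to the sum.

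A model with 4 separate treatments, chosen after seeing the data, gave each drug's effect on its own, over 2 library pairs. With sorafenib alone PHGDH rose by 2.06 ± 0.31 (limma, adjusted p = 0.0476), SLC6A9 by 1.31 ± 0.15 (0.0345), ASNS by 1.40 ± 0.16 (0.0345) and PSPH by 1.05 ± 0.14 (0.0373). That is 4 of 8 genes where 0.64% of all genes were called. The 8 genes, like the model, were chosen with results of these data known, so this share is a description and not a test of the set. MTHFD2 was 0.88 ± 0.15 higher but missed the threshold (0.0614). All 4 of these calls were lost in each of the 8 refits with 1 library left out, with adjusted p up to 0.314. With dipyridamole alone PHGDH rose by 1.71 ± 0.31 (limma, adjusted p = 0.0133), SLC6A9 by 1.14 ± 0.15 (0.00415) and ASNS by 1.21 ± 0.16 (0.00457), and SHMT1 fell by 0.78 ± 0.13 (0.0103), where 15.4% of all genes were called. The ASNS and SLC6A9 calls were each lost in 1 of the 8 refits, and those of PHGDH and SHMT1 in 3.

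Adding dipyridamole to sorafenib lowered 4 of the 8 in that model, where 22.3% of all genes were called. SLC6A9 fell by 0.76 ± 0.15 (limma, adjusted p = 0.0142), SHMT1 by 0.73 ± 0.13 (0.0108), MTHFD2 by 0.52 ± 0.15 (0.0451) and PSPH by 0.50 ± 0.14 (0.0457). The calls of SLC6A9 and SHMT1 were lost in 3 of the 8 refits, that of MTHFD2 in 6 and that of PSPH in 8. Adding sorafenib to dipyridamole gave a fall of SLC6A9 by 0.58 ± 0.15 (limma, adjusted p = 0.0494) and a rise of ASNS by 0.69 ± 0.16 (0.0391), where 11.1% of all genes were called, and both calls were lost in all 8 refits.

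With both drugs against the control treatment, 4 of the 8 rose and 1 fell in the same model, where 38.7% of all genes were called. PHGDH rose by 1.97 ± 0.31 (limma, adjusted p = 0.00345) and ASNS by 1.90 ± 0.16 (0.000481), and SHMT1 fell by 0.88 ± 0.13 (0.00281). These 3 calls held in all 8 refits with 1 library left out. SLC6A9 rose by 0.56 ± 0.15 (limma, adjusted p = 0.0233) and PSPH by 0.55 ± 0.14 (0.0218). Both of those calls were lost in 3 of the 8 refits and after size-factor scaling (adjusted p = 0.0981 and 0.0596). The comparisons of this model share libraries and are not independent of each other.

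The other genes of the folate cycle were counted from a list of 16, of which 13 were tested. With dipyridamole 1 rose and 4 fell, against 30% of all genes called. TYMS, thymidylate synthase, was at 13.2 to 17 FPKM in the 4 libraries without dipyridamole and 4.18 to 6.18 in those with it, and fell by 1.41 ± 0.13 (limma, adjusted p = 0.000158). MTHFD1, the cytosolic trifunctional enzyme, was at 74.5 to 86.4 and 39.7 to 54.6 FPKM and fell by 0.86 ± 0.11 (limma, adjusted p = 0.000651). GGH, which trims folate polyglutamates, fell by 0.93 ± 0.14 (limma, adjusted p = 0.00164). The folate carrier SLC19A1 fell by 0.82 ± 0.11 (limma, adjusted p = 0.00087). All of these lay on the same side as SHMT1, and each call held in all 8 refits with 1 library left out, without both dipyridamole-treated mock libraries, without a filter on low values and after size-factor scaling.

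In the opposite direction, FPGS, which adds glutamates to folate and was chosen after its values were seen, rose with dipyridamole by 0.36 ± 0.11 (limma, adjusted p = 0.0355). That call was lost in 6 of the 8 refits with 1 library left out, without a filter on low values (adjusted p = 0.0793) and after size-factor scaling (0.30, adjusted p = 0.0996). With sorafenib 1 of the 13 fell and none rose, against 8.11% of all genes. This was SLC19A1, which fell by 0.51 ± 0.11 (limma, adjusted p = 0.0281; lost in 6 of the 8 refits). Of the direct partners of the mitochondrial enzymes, MTHFD2L was at 3.07 to 7.45 FPKM, the mitochondrial folate carrier SLC25A32 at 11 to 16.3 and the cytosolic ALDH1L1 at 0 to 0.257.

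The methionine cycle and transsulfuration list held 15 genes, 11 of them tested. MAT2A, the S-adenosylmethionine synthetase of most tissues, was the only one called for sorafenib, where 8.11% of all genes were. Its level was 784 and 844 FPKM with the control treatment, 363 and 460 with sorafenib, 820 and 680 with dipyridamole and 299 and 141 with both drugs, in mock and SLC29A2 cells. The 4 libraries with sorafenib lay below the other 4, and the gene fell by 1.43 ± 0.25 (limma, adjusted p = 0.015), a call lost in 2 of the 8 refits with 1 library left out (adjusted p up to 0.0676), without a filter on low values (0.0983) and without both dipyridamole-treated mock libraries (0.0678). With dipyridamole 1 of the 11 rose and 3 fell, a share near the 30% of all genes called. GNMT, which uses S-adenosylmethionine to methylate glycine, rose by 0.96 ± 0.25 (limma, adjusted p = 0.0204), from 1.12 to 2.32 FPKM without the drug to 2.42 to 6.79 with it; without both dipyridamole-treated mock libraries the value was 0.35 (adjusted p = 0.249), and the call was lost in 3 of the 8 refits with 1 library left out.

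AMD1, of polyamine synthesis, fell with dipyridamole by 0.53 ± 0.13 (limma, adjusted p = 0.0137), MTRR, which reactivates methionine synthase, by 0.38 ± 0.12 (0.045), and MAT2B, the regulatory partner of MAT2A and named after its values were seen, by 0.31 ± 0.10 (0.0455). The AMD1 call was lost in 1 of the 8 refits with 1 library left out, that of MTRR in 6 and that of MAT2B in 8. Without both dipyridamole-treated mock libraries those of AMD1 (−0.38, adjusted p = 0.127) and MAT2B (−0.36, adjusted p = 0.0745) were lost, and without a filter on low values those of MTRR (adjusted p = 0.101) and MAT2B (0.061). CBS, the entry enzyme of transsulfuration that consumes serine, was at 14.2 and 18.4 FPKM with the control treatment and 25.2 to 34.5 in the 6 treated libraries. The next enzyme, CTH, was at 3.45 to 5.31. Neither was called for either drug.

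The list of glycine cleavage, serine breakdown and transport held 18 genes, and 13 were tested. With sorafenib 3 rose and none fell, against 8.11% of all genes called, 5.94% higher. SDSL, a serine dehydratase-like gene, was at 2.54 to 5.06 FPKM in the 4 libraries without sorafenib and 4.83 to 14.4 in the 4 with it, and rose by 1.02 ± 0.19 (limma, adjusted p = 0.0178). SLC1A4, a neutral amino acid exchanger that carries serine, was at 13.3 to 24.5 and 26 to 35 FPKM, and rose by 0.85 ± 0.18 (limma, adjusted p = 0.0273). SARDH, which makes glycine from sarcosine, rose by 0.76 ± 0.19 (limma, adjusted p = 0.0417). Refitting without 1 library ended these calls in 3, 5 and 6 of 8 cases. With dipyridamole 2 of the 13 rose and 2 fell, a share near the 30% of all genes called. SDSL rose by 0.74 ± 0.19 (limma, adjusted p = 0.0172), a call lost in 2 of the 8 refits, without a filter on low values (adjusted p = 0.0708) and without both dipyridamole-treated mock libraries (0.94, adjusted p = 0.0617). SLC38A2, another neutral amino acid transporter, fell by 0.60 ± 0.19 (limma, adjusted p = 0.0419), a call lost in 6 of the 8 refits and without a filter (adjusted p = 0.149).

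The other 2 of that list, named after their values were seen, were SFXN3, a sideroflexin of the mitochondrial membrane, which rose by 0.44 ± 0.14 (limma, adjusted p = 0.0426), and DLD, a shared subunit of the glycine cleavage system, which fell by 0.57 ± 0.09 (limma, adjusted p = 0.00242). The SFXN3 call was lost in 6 of the 8 refits with 1 library left out, without a filter on low values (adjusted p = 0.123) and without both dipyridamole-treated mock libraries (0.18, adjusted p = 0.239). GLDC, the glycine decarboxylase of that system, was at 3.23 to 5.56 FPKM and was not called. None of the 8 aspartate, asparagine and glutamine genes was called for sorafenib (limma; median effect 0.03), although ASNS, which uses aspartate and glutamine, rose. With dipyridamole 2 of the 8 fell, against 30% of all genes called, 12.6% lower: PC, pyruvate carboxylase, by 0.62 ± 0.11 (limma, adjusted p = 0.00288) and GOT2, the mitochondrial aspartate aminotransferase, by 0.48 ± 0.10 (0.00636). The GOT2 call was lost without both dipyridamole-treated mock libraries (−0.38, adjusted p = 0.0529).

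ATF4 and 14 genes of its stress programme were all tested. With dipyridamole 11 rose and 1 fell, against 30% of all genes called, with a median effect of 1.21. With sorafenib 7 rose and none fell, against 8.11%, with a median of 0.62. The list was chosen with earlier results of these data known. In the model with 4 separate treatments, 1 of the 15 rose with sorafenib alone, where 0.64% of all genes were called. Adding sorafenib to dipyridamole raised 4 in that model, where 11.1% of all genes were called. With dipyridamole alone 13 rose and 1 fell, where 15.4% of all genes were called. PPP1R15A, a phosphatase subunit of the stress response, was at 72.3 to 121 FPKM without dipyridamole and 274 to 535 with it, and rose by 2.10 ± 0.13 (limma, adjusted p = 4.71e-05). DDIT3, a stress transcription factor, was at 7.78 to 16.2 and 35.3 to 68.5 FPKM and rose by 1.90 ± 0.15 (limma, adjusted p = 7.87e-05). The pseudokinase gene TRIB3 was at 29 and 39 FPKM with the control treatment, 72.8 and 95.1 with sorafenib, 176 and 104 with dipyridamole and 279 and 232 with both drugs, in SLC29A2 and mock cells. As for ASNS the single-drug values lay between the control treatment and both drugs, though here dipyridamole was the higher of the single drugs and for ASNS sorafenib was.

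TRIB3 rose with sorafenib by 1.09 ± 0.19 (limma, adjusted p = 0.0156) and with dipyridamole by 1.79 ± 0.19 (0.000347). Its sorafenib call was lost in 1 of the 8 refits with 1 library left out (limma, adjusted p up to 0.0654). NUPR1, a small stress-response nuclear protein gene, was listed at 0.135 and 0.206 FPKM with the control treatment and at 8.97 and 8.27 with both drugs, and rose with sorafenib by 1.55 ± 0.22 (limma, adjusted p = 0.00625) and with dipyridamole by 1.49 ± 0.22 (0.00141). DDIT3 (0.63 ± 0.15, adjusted p = 0.0366) and PPP1R15A (0.62 ± 0.13, adjusted p = 0.0289) also rose with sorafenib by limma, calls that did not survive in 5 and 6 of the 8 refits with 1 library left out. The 1 gene that fell with dipyridamole, named after its values were seen, was ATF5 (−0.66 ± 0.12; limma, adjusted p = 0.00479). With any 1 library left out, 3 to 6 of the 15 were called for sorafenib and 11 to 14 for dipyridamole. For sorafenib 1 was called without a filter on low values and 3 without both dipyridamole-treated mock libraries.

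The ATF4 transcript itself was at 143 and 154 FPKM with the control treatment and 169 to 265 in the treated libraries. Its effect was −0.04 ± 0.16 for sorafenib (limma, adjusted p = 0.895) and 0.39 ± 0.16 for dipyridamole (limma, adjusted p = 0.0965). The sorafenib average joined pairs of opposite sign (−0.65 to 0.34). Without dipyridamole, sorafenib went with 195 against 154 FPKM in mock cells and 176 against 143 in SLC29A2 cells. With dipyridamole the values were 213 against 238 and 169 against 265. The interaction of the drugs was −0.72 ± 0.21 (limma, adjusted p = 0.257). Of 8 genes upstream of ATF4 or known to regulate these pathways, 1 rose with each drug, against 8.11% of all genes called for sorafenib and 30% for dipyridamole. EIF2AK4, the kinase that senses uncharged tRNA, rose with sorafenib by 0.39 ± 0.10 (limma, adjusted p = 0.0437; lost in all 8 refits), and EIF2AK3, the kinase of the endoplasmic reticulum, rose with dipyridamole by 0.78 ± 0.15 (limma, adjusted p = 0.00535). That call was lost without both dipyridamole-treated mock libraries (0.55, adjusted p = 0.0709).

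The calls of the list genes named here were recomputed under other settings. Without a filter on low values, all 10 sorafenib calls were lost (SLC19A1, MAT2A, SDSL, SLC1A4, SARDH, PPP1R15A, DDIT3, TRIB3, NUPR1 and EIF2AK4). Size-factor scaling lost those of SLC1A4, SARDH, DDIT3 and EIF2AK4. Without both dipyridamole-treated mock libraries, the sorafenib calls of SLC1A4 and TRIB3 were the ones that held. The dipyridamole calls of TYMS, GGH, MTHFD1, SLC19A1, DLD, PC, PPP1R15A, DDIT3, TRIB3, NUPR1 and ATF5 held in each of these settings and in all 8 refits with 1 library left out.

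**Figure D4:**
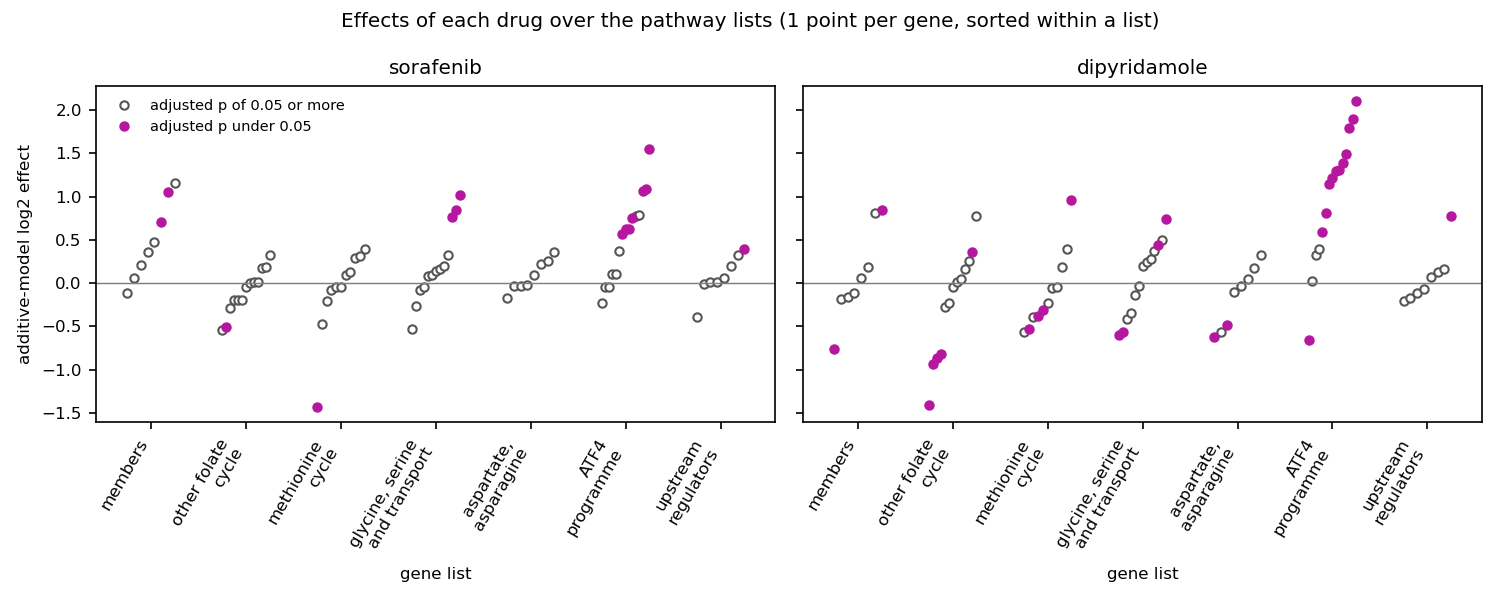
Additive-model log2 effect of each tested gene, 1 point per gene and sorted within each list, for sorafenib and dipyridamole; filled points have a limma adjusted p under 0.05. The ATF4 list has 7 filled points above 0 for sorafenib and 11 for dipyridamole, and the other folate cycle genes have 4 filled points below 0 for dipyridamole, down to −1.41.

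The genes whose profile over the 8 libraries was most like that of a member were ranked by the root-mean-square difference between centred log2 profiles, for the 6 members whose values spanned at least 1 on that scale. Nearest to SHMT1 were XRCC6 (0.05), ILF2 (0.07) and RCC2 (0.07). PSPH had APOL6 (0.07), IL18 (0.14) and MAGI1 (0.14), and MTHFD2 had TSEN15 (0.10), RAB4B (0.14) and again APOL6 (0.15). Nearest to SLC6A9 were ATP2B4 (0.16), ERBB3 (0.22) and THBD (0.25). ASNS and PHGDH shared HSPG2 among their nearest 3 (0.19 and 0.35), beside RNU6-584P (0.14) and SEL1L3 (0.20) for ASNS and LTBP2 (0.34) and JDP2 (0.35) for PHGDH. RNU6-584P had a mean of 1.2 FPKM. No other member was among the nearest 3 of any of the 6.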

How the data were processed

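Each of the 8 libraries had a table of FPKM values deposited by the authors; per the submitters' processing notes, the tools were TopHat2 2.0, HTSeq 0.6.1 and edgeR with GRCh38.p12, their roles not given in the sources used here. Per the labels' protocols, RNA was poly(A)-selected and made into NEBNext Ultra libraries. Symbols, positions and overlaps came from GENCODE on GRCh38, which matched 58039 of 58302 genes. The 8 lines without a gene identifier held 0 values.

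The 13899 genes averaging at least 1 FPKM were fitted as log2(FPKM + 1) with limma 3.58.1 in R 4.3.3, additively in cell type, sorafenib and dipyridamole, with a variance trend and 4 residual degrees of freedom. Each interaction was added singly. Tests were two-sided with Benjamini-Hochberg adjustment over all genes at 0.05. Without replicates, p-values measure only the spread between these libraries, including unmodelled interactions. Alternatives were another pseudocount, no filter, size factors, limma voom on recovered reads, all pairwise interactions, left-out libraries and, added later, 4 separate treatments. For voom, FPKM times mean transcript length gave whole reads for 91.04% to 91.31% of values within 0.01, and it called 1635 genes for sorafenib and 4523 for dipyridamole. The fits were tested on simulated data in which sorafenib alone changed genes. Interactions of the drugs and shifts of scale between libraries were not simulated, so that test does not cover them.

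Members and lists were chosen with earlier results of these data known. Named from the 6 other lists (80 genes) were direct partners and up to 4 called genes per list with the largest effect; 2 other genes are not reported here. Promoter sequences came from RefSeq tables on GRCh38.p14.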

Additional observations from a re-analysis of the deposited data

Results flagged for a closer look

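The sorafenib effect on SLC6A9, the glycine transporter, differed between libraries without and with dipyridamole by −1.9 on the log2 scale (limma interaction test, adjusted p = 0.0457). Without dipyridamole the sorafenib difference was 1.10 in mock cells and 1.53 in SLC29A2 cells, and with dipyridamole it was −0.61 and −0.55. All 4 single pairs thus followed this pattern. The call was lost in all 8 refits with 1 library left out, with the value between −2.09 and −1.71.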

How the results depend on the processing

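For the tested members, 2 were called for sorafenib, 2 for dipyridamole and 1 for the interaction of the drugs. For sorafenib the count was 0 without a filter on low values, 1 with size factors, 6 with all pairwise interactions in the model (1 residual degree of freedom), 0 without both dipyridamole-treated mock libraries and 4 for sorafenib alone among 4 separate treatments; over all genes it was 136, 4839, 301 and 89 with no filter, all interactions, those libraries left out and sorafenib alone, against 1127. For dipyridamole it was 1 without both libraries, 4 for dipyridamole alone and 4 for both drugs against sorafenib alone; over all genes it was 2622 with no filter, 7411 with all interactions and 2134 for dipyridamole alone, against 4173. For the interaction it was 0 with a pseudocount of 0.1, 0 with no filter and 6 without both libraries (1 residual degree of freedom); over all genes it was 0, 0 and 3514, and 25 with size factors, against 12. Without both libraries 2 genes were called for the cell type by sorafenib interaction, against 0. In these, fewer libraries or more genes tested are part of the alternative; otherwise the cause was not tested.

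With 1 library left out in turn, member counts were 1 to 2 for sorafenib, 2 to 3 for dipyridamole and 0 to 0 for the interaction; over all genes they were 272 to 914, 2926 to 3641 and 0 to 2, with 1 to 2 for cell type, 0 to 0 for cell type by sorafenib and 0 to 1 for cell type by dipyridamole. PHGDH passed for sorafenib with voom (1.16, adjusted p = 0.0451). Each sign that turned belonged to an effect that was uncalled in the main analysis. For sorafenib, SHMT2 was −0.05 with size factors and −0.09 for both drugs against dipyridamole, where SLC6A9 was −0.58. For dipyridamole, SHMT2 was −0.01 with size factors and −0.08 for both drugs against sorafenib. SLC6A9 was −0.76 for both drugs against sorafenib, where PHGDH was −0.09. MTHFD2 was 0.05 without both dipyridamole-treated mock libraries and 0.30 for dipyridamole alone, where PSPH was 0.18. For the interaction, SHMT1 was −0.06 with size factors and MTHFD1L was 0.03 without both dipyridamole-treated mock libraries. The full range with 1 library left out was −0.05 to 0.17 for SHMT2 and −0.14 to 0.11 for ATF4 (sorafenib), −0.05 to 0.15 for SHMT2, −0.11 to 0.47 for SLC6A9 and −0.28 to 0.03 for MTHFD2 (dipyridamole), and −0.07 to 0.17 for SHMT1 and −0.22 to 0.03 for MTHFD1L (interaction). Size factors moved the median of all genes from 0.105 to 0.003 for the interaction of the drugs and from −0.139 to −0.008 for cell type by dipyridamole. No analysis paired by replicate was possible because each condition has 1 library. Library pairs matched on the other factors are those of the additive model. Depth limited PSAT1 (0 to 4 reads) and ALDH1L2 (6 to 26).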

Other observations

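Of the methionine genes that did not enter the tests, MTAP, which salvages methionine from methylthioadenosine on chromosome 9, was listed at 0 FPKM in 6 of the 8 libraries and at 0.137 and 0.0324 in mock cells given sorafenib and SLC29A2 cells given both drugs. Its neighbours were looked at after that value was seen. CDKN2A was listed at 0 in 7 libraries and at 0.23 FPKM in SLC29A2 cells given both drugs, and CDKN2B, CDKN2B-AS1 and DMRTA1 were listed at 0 in all 8. KLHL9, on the other side of MTAP, was at 4.98 to 9.25 FPKM.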
